A study of Homo sapiens with 6 samples.

Results

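BCLAF1, LMBRD2, FAM217B, TWF1 and LINC01358 are 5 of the 60671 genes in the RSEM tables of KGN cells depleted of FOXL2. They were selected on the effect of RSEM's effective length on their fold change between FOXL2 siRNA and control siRNA. Their counts, lengths and TPM values in this contrast therefore chose them and are given as a description, with no test. All 5 were among the 15663 genes that passed the filter on low counts. KGN is a human granulosa tumour cell line, and the cells used here were genome-edited to carry 2 wild-type alleles of FOXL2, in both conditions. The 6 libraries were made 30 h after transfection with 30 pmol of siRNA, 3 with siRNAs against FOXL2 and 3 with a scrambled control siRNA. The 3 FOXL2 siRNA replicates were not given one and the same reagent. Each received a pool of 3 of 4 siRNAs, with 1 siRNA common to all pools, so pool and replicate cannot be told apart. No source used here says whether the replicates of a condition were separate cultures, or whether the edited line was a single clone.

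Most human genes are transcribed into several transcripts that differ in start, splicing and polyadenylation site. RSEM divides the reads of a gene among its annotated transcripts and reports for the gene a length, which is the mean transcript length weighted by their estimated abundance in that library, and an effective length, which is that mean after allowing for the fragment length. TPM is the count divided by the effective length and scaled to the library, and is therefore a level per unit of length. A gene whose reads are moved from short to long transcripts keeps its count and loses TPM, because a long molecule yields more reads than a short one.

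The 5 genes have unrelated functions. BCLAF1 is a nuclear SR-like protein involved in RNA processing and transcription. LMBRD2 is a multipass membrane protein linked to beta-adrenergic receptor signalling. TWF1 (twinfilin-1) binds actin monomers and filament ends. FAM217B is a little studied protein-coding gene, and LINC01358 is a long intergenic non-coding RNA. In the GENCODE 29 annotation of GRCh38, BCLAF1 (ENSG00000029363) lies on the minus strand at chr6:136256627-136289851 and has 24 transcripts of 519 to 7719 nt, of which 9 are coding, 7 retain an intron and 7 are annotated as targets of nonsense-mediated decay. LMBRD2 (ENSG00000164187) lies on the minus strand at chr5:36098412-36151961 with 3 transcripts, a coding one of 8185 nt and a pair with a retained intron of 418 and 370 nt. FAM217B (ENSG00000196227) lies on the plus strand at chr20:59933764-59948680 with 4 transcripts of 5152, 5036, 880 and 419 nt. TWF1 (ENSG00000151239) lies on the minus strand at chr12:43793723-43806375 with 11 transcripts, 3 of them between 3012 and 3320 nt and 8 of at most 1170 nt. LINC01358 (ENSG00000237352) lies on the plus strand at chr1:58933643-59240555. Of the 27 transcripts listed for it in the deposited tables, 11 were found in this annotation, of 152 to 2575 nt.

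In LMBRD2 and FAM217B the gene's length is set by how many reads are given to a pair of short transcripts, which share part of their bases with the long one. Of the 370 nt of LMBRD2-203, 12 nt lie outside LMBRD2-201, the coding transcript. For LMBRD2-202 this is 224 of 418 nt, for FAM217B-203 it is 74 of 419 nt and for FAM217B-204 it is 77 of 880 nt, both against FAM217B-201, the longest transcript. The places where these short transcripts part from the long one are shown because reads over them can tell the transcripts apart. Reads within bases that the transcripts do not share can do so too. Each run is read 5′ to 3′ on the strand of the gene (GRCh38). In the first 4 runs the capitals mark bases that are intronic or otherwise absent in the long transcript, and in the last 2 they mark the bases after a splice junction that the long transcript does not have.
LMBRD2-202, minus strand of chr5:36142585-36142614, intron kept before an exon: CATTCGTTGCTTTAGacaatatacaaccgg
LMBRD2-202, minus strand of chr5:36141092-36141121, exon running on into the intron: acaatttttaacatgGTAAGTTACAGTAAA
LMBRD2-203, minus strand of chr5:36108522-36108548, exon running on to the transcript's end: ttaataccaaccgttGTAAGTAGTTTA
FAM217B-203, plus strand of chr20:59942183-59942212, exon starting upstream: TTCTGTTGCTTCTAGttccggtggtgagga
LMBRD2-203, minus strand, joining chr5:36115015-36115029 to chr5:36114470-36114484: actgcttatacatctATGGATTCTATATAT
FAM217B-204, plus strand, joining chr20:59942498-59942512 to chr20:59944396-59944410: tcatcagaaaagcagCTCCTGGGACCTACG

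The library totals were 23843192 to 28791954 expected counts. FOXL2 itself fell to 27.3% of its control level, with 248, 238 and 290 counts in control siRNA replicates 1 to 3 and 72, 80 and 68 in FOXL2 siRNA replicates 1 to 3 (log2 fold change -1.88 ± 0.142 SE, n = 3 per condition, adjusted p = 0.00267, quasi-likelihood test of edgeR). An exact two-sided permutation test gave p = 0.1, the smallest that 3 against 3 allows. FOXL2's own length ratio was 0.00 on the log2 scale. Of 15 granulosa markers, 6 had a mean TPM of at least 1, CYP19A1 and CYP11A1 were below 1, and FSHR and WT1 had no counts. FOXL2 siRNA replicate 2 stood apart on the first principal component of expression (31.2% of variance), at 40.9 against -17.2 to -0.025 for the other 5 libraries, and the count, length and TPM ratios of the 5 genes are given with and without it.

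The mean count levels of the 5 genes over the 3 libraries of each condition differed little, while the lengths and TPM values of the single libraries separated. Count levels are given below as CPM, the counts scaled to library size after TMM normalisation. The CPM of the conditions overlapped for each of the 5 genes, and their edgeR log2 fold changes lay between -0.04 and 0.08. None of the 5 was called by edgeR, against 0.255% of all genes tested. The effective lengths of the conditions did not overlap for any of the 5, with the 4 coding genes longer and LINC01358 shorter after FOXL2 siRNA. Among all tested genes with a length in every library, 9.97% had effective lengths that did not overlap, 7.54% longer and 2.43% shorter, while for CPM the share was 20.5%. TPM also separated without overlap for all 5, lower for the 4 coding genes and higher for LINC01358, against 18.4% of all genes. Lengths that did not overlap together with counts that did were found for 1225 genes (7.82%), of which 922 (5.89%) were longer and 303 (1.93%) shorter, and 248 genes (1.58%) also had TPM values that did not overlap. With a length change of at least 1.5-fold, which LMBRD2, FAM217B and LINC01358 had, 47 genes (0.3%) were left. When the conditions do not differ, complete separation of 3 against 3 libraries has a probability of 0.1 for values that are free to vary. The 9.97% found for lengths cannot be read against it. A gene with a single annotated transcript has a fixed length less the library's allowance for fragment length. Those allowances overlapped between the conditions, which leaves such a gene little room to separate. The separated lengths were also split unevenly, 7.54% longer against 2.43% shorter. Whether the genes with this pattern form a class of their own was not tested. The 5 genes are among the 248 above, and their agreement with the pattern that chose them is no evidence for it.

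**Figure D1:**
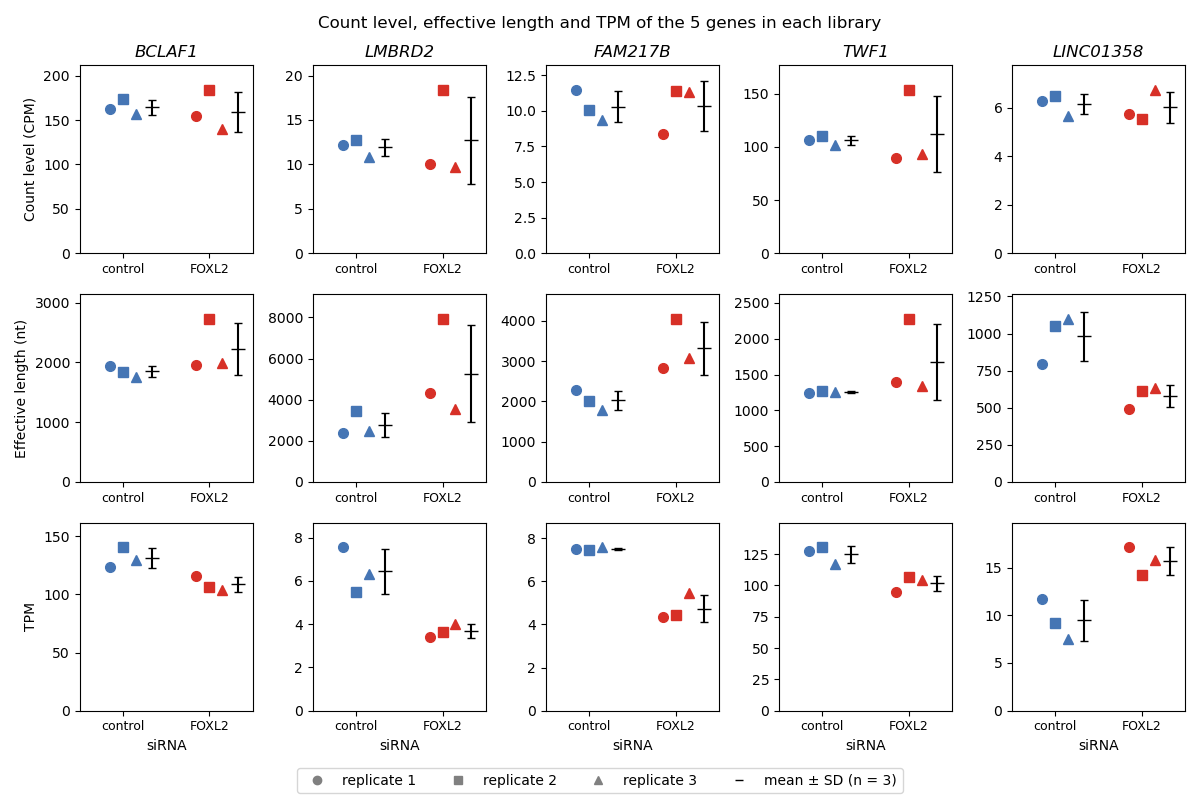
Count level (CPM), effective length (nt) and TPM of the 5 genes, one column per gene, in the 3 control siRNA libraries (blue) and the 3 FOXL2 siRNA libraries (red). Symbols mark the replicate number and black bars the mean ± SD of 3 libraries. In every gene the red and blue points separate in the lower 2 rows and their ranges overlap in the top row. There the red points of BCLAF1, LMBRD2 and TWF1 lie on both sides of the blue ones. FOXL2 siRNA replicate 2 (red square) is the highest red point for length in the 4 coding genes.

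LMBRD2 had the largest shift in length of the 5. Its expected counts were 306, 312 and 291 in control siRNA replicates 1 to 3, and 273, 445 and 279 in FOXL2 siRNA replicates 1 to 3. FOXL2 siRNA replicate 2 lay above every control and replicates 1 and 3 lay below every control. The effective length was 2398, 3464 and 2493 nt in the controls and 4319, 7945 and 3557 nt after FOXL2 siRNA. TPM was 7.55, 5.48 and 6.32 in the controls and 3.39, 3.65 and 4.03 after FOXL2 siRNA, so that the FOXL2 siRNA libraries were close to each other in TPM although their lengths differed widely. The mean CPM was 11.9 ± 0.966 in controls and 12.7 ± 4.94 after FOXL2 siRNA (SD, n = 3), a fitted log2 fold change of 0.08 ± 0.229 (SE). The mean effective length was 1.89-fold higher (0.92 on the log2 scale) and mean TPM fell by 42.8%. With the effective lengths as offsets, which divide each count by the length in its library, the fitted log2 fold change was -0.80 ± 0.140 in edgeR and -0.81 ± 0.164 in DESeq2 (SE). The control libraries also varied among themselves, with a coefficient of variation of length of 21.2%. By the size of the log2 length ratio LMBRD2 ranked 31 among the 15662 genes, whose median size was 0.0352.

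FAM217B showed the same direction with a narrow spread of TPM in the controls. Expected counts were 288, 246 and 251 in the controls and 228, 275 and 326 after FOXL2 siRNA. Effective lengths were 2272, 2004 and 1795 nt in the controls and 2822, 4056 and 3069 nt after FOXL2 siRNA. TPM was 7.50, 7.47 and 7.57 in the controls, a coefficient of variation of 0.683%, and 4.33, 4.42 and 5.46 after FOXL2 siRNA. The controls thus agreed in TPM more closely than in CPM, where their coefficient of variation was 10.5%. CPM was 10.3 ± 1.08 in controls and 10.3 ± 1.73 after FOXL2 siRNA (SD, n = 3), with a log2 fold change of 0.01 ± 0.142 (SE). Mean effective length was 1.64-fold higher, and mean TPM fell by 37.0%. The offset fits gave log2 fold changes of -0.67 ± 0.128 in edgeR and -0.67 ± 0.162 in DESeq2 (SE). Its length ratio ranked 71.

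TWF1 had the steadiest control lengths of the 5, at 1249, 1263 and 1256 nt of effective length, a coefficient of variation of 0.569%. After FOXL2 siRNA they were 1392, 2281 and 1334 nt, so that the mean of 1669 ± 531 nt (SD, n = 3) was set largely by replicate 2. Expected counts were 2686, 2705 and 2721 in the controls and 2461, 3723 and 2699 after FOXL2 siRNA. The same library had both the most counts and the greatest length. TPM was 127, 130 and 117 in the controls and 94.8, 106 and 104 after FOXL2 siRNA, without the high value of replicate 2 that counts and length had. The log2 fold change of counts was 0.08 ± 0.180 (SE), mean effective length was 1.33-fold higher and mean TPM fell by 18.6%. With the length offsets the log2 fold change was -0.30 ± 0.0659 in edgeR and -0.31 ± 0.0787 in DESeq2 (SE), with a rank of 374 for the length ratio.

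BCLAF1 was the most abundant of the 5 and had the smallest shift. Expected counts were 4073, 4263 and 4208 in the controls and 4234, 4457 and 4030 after FOXL2 siRNA. Effective lengths were 1946, 1848 and 1763 nt in the controls and 1953, 2734 and 1991 nt after FOXL2 siRNA. Control replicate 1 and FOXL2 siRNA replicate 1 were nearly equal, and the groups were kept apart by that small margin. TPM was 124, 140 and 129 in the controls and 116, 106 and 104 after FOXL2 siRNA. CPM was 164 ± 8.68 in controls and 160 ± 22.6 after FOXL2 siRNA (SD, n = 3), with a log2 fold change of -0.04 ± 0.0980 (SE). Mean effective length was 1.20-fold higher and mean TPM fell by 17.0%. The offset fits gave -0.27 ± 0.0751 in edgeR and -0.28 ± 0.0854 in DESeq2 (SE), and the length ratio ranked 1027.

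LINC01358 moved the other way. Its expected counts were 157, 159 and 152 in the controls and 157, 134 and 194 after FOXL2 siRNA. Effective lengths were 792, 1051 and 1101 nt in the controls and 492, 616 and 632 nt after FOXL2 siRNA, so that every FOXL2 siRNA library was below every control. TPM was 11.7, 9.19 and 7.48 in the controls and 17.1, 14.2 and 15.8 after FOXL2 siRNA. The log2 fold change of counts was -0.03 ± 0.126 (SE). Mean effective length fell by 40.9%, and mean TPM was 1.66-fold higher. The offset fits gave 0.75 ± 0.185 in edgeR and 0.73 ± 0.220 in DESeq2 (SE), and the length ratio ranked 52. Here FOXL2 siRNA replicate 1, not replicate 2, was the farthest from the controls in both length and TPM.

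**Figure D2:**
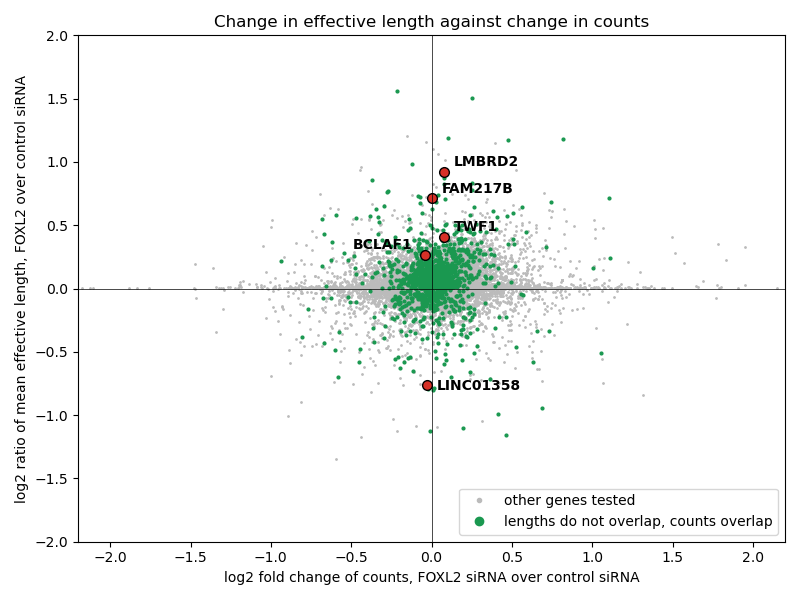
Each point is 1 of the 15662 tested genes with a length in every library, with the edgeR log2 fold change of counts on the horizontal axis and the log2 ratio of mean effective length on the vertical axis, FOXL2 siRNA over control siRNA (14 genes lie outside the axes). Green points are the genes whose lengths do not overlap between conditions while their CPM does, and the 5 named genes (red) lie close to 0 on the horizontal axis and away from 0 on the vertical one.

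The description of the counts as unchanged held for the mean of the 3 FOXL2 siRNA libraries and not for the single libraries. For BCLAF1, LMBRD2 and TWF1, the CPM of FOXL2 siRNA replicates 1 and 3 lay below every control and that of replicate 2 lay above every control. In TWF1 the 3 FOXL2 siRNA libraries stood at 84.7%, 145% and 88.1% of the control mean for CPM and at 111%, 182% and 106% for effective length. The TPM of the same libraries was 75.8%, 85.1% and 83.2% of the control mean. In LMBRD2 the corresponding values were 83.8%, 154% and 81.1% for CPM, 155%, 285% and 128% for effective length, and 52.6%, 56.6% and 62.5% for TPM. BCLAF1 had 94.2%, 112% and 85.0% for CPM, 105%, 148% and 107% for effective length, and 88.6%, 81.0% and 79.4% for TPM. TPM was thus below the control mean by a similar amount in the 3 libraries of these genes, with fewer counts and a moderate gain of length in replicates 1 and 3, and with more counts and the largest gain of length in replicate 2. FAM217B departed from this, with CPM below every control in replicate 1 alone (81.1% of the control mean) and within the control range in replicates 2 and 3. For LINC01358 the CPM of replicate 2 was below every control and that of replicate 3 above every control.

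Without FOXL2 siRNA replicate 2, the CPM of the conditions no longer overlapped for BCLAF1, LMBRD2 and TWF1, which stood at 0.896-, 0.824- and 0.864-fold of the control mean. Their length ratios then dropped from 1.20 to 1.06 for BCLAF1, from 1.89 to 1.41 for LMBRD2 and from 1.33 to 1.09 for TWF1. FAM217B kept a length ratio of 1.46 and LINC01358 one of 0.573, both with overlapping CPM. The TPM ratios were then 0.840 for BCLAF1, 0.575 for LMBRD2, 0.652 for FAM217B, 0.795 for TWF1 and 1.74 for LINC01358. The part of the siRNA pool in what sets replicate 2 apart was not tested.

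Over the 15662 genes, FOXL2 siRNA replicates 2 and 3 held the greatest effective length of the 6 libraries in 28.3% and 31.7% of genes, whereas FOXL2 siRNA replicate 1 did so in 11% and the controls in 8.97% to 10.2%. Control siRNA replicate 2 held the smallest length in 32.6% of genes. The median log2 length ratio over all genes was 0.00947, far smaller than the ratios of 0.27 to 0.92 in the 4 coding genes. The allowance for fragment length, which is the length minus the effective length, also differed between libraries. It was 173, 174 and 169 nt in control siRNA replicates 1 to 3 and 169, 172 and 163 nt in FOXL2 siRNA replicates 1 to 3, smallest in the library that most often held the greatest effective length and largest in the one that most often held the smallest. Its part in these shares was not tested.

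How far the mean length fixes the mixture of transcripts was worked out for the 3 genes whose transcripts fall into a long and a short class, split at 3000 nt. This arithmetic was chosen after the values were seen. It takes the reported length as a weighted mean of the annotated lengths, with bounds set by giving the short class its shortest or its longest member and the long class likewise. In LMBRD2 the long transcript made up 27.7-28.2%, 41.5-41.8% and 28.9-29.3% of the molecules in control siRNA replicates 1 to 3, and 52.4-52.7%, 99.1% and 42.5-42.9% in FOXL2 siRNA replicates 1 to 3. The share is a rescaling of the length, and its order over the libraries is that of the lengths given above. For FAM217B the long share was 36.6-43.9%, 30.4-38.1% and 25.4-33.5% in the controls and 49.4-55.7%, 78.4-82.5% and 55.1-60.9% after FOXL2 siRNA. In TWF1 the bounds were too wide to separate the conditions (11.7% to 39.8% over the controls), except for FOXL2 siRNA replicate 2 at 59.6% to 78.6%.

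The same arithmetic gives an implied TPM for each class. It follows from the length and TPM that selected these genes, so a separation of the short class is fixed by that choice and is no further result. For LMBRD2 the long transcript had an implied TPM of 2.09-2.13, 2.27-2.29 and 1.83-1.85 in the controls, against 1.78-1.79, 3.62 and 1.71-1.73 after FOXL2 siRNA. The short pair had 5.42-5.46, 3.19-3.21 and 4.47-4.49 in the controls and 1.60-1.61, 0.0322-0.0324 and 2.30-2.32 after FOXL2 siRNA. For FAM217B the long pair ranged from 1.92 to 3.29 over the controls and from 2.14 to 3.65 after FOXL2 siRNA, and the short pair from 4.21 to 5.65 and from 0.774 to 2.45. The short transcripts rest on few reads. In LMBRD2 they account for 18.2-22.7, 10.3-12.9 and 16.6-20.7 counts in the controls, and for 6.01-7.49, 0.0982-0.123 and 9.30-11.5 after FOXL2 siRNA. At most 7.42% of the gene's counts thus decide its mean length. For FAM217B the short pair accounts for 17.5 to 74.2 counts over the controls and 2.94 to 34.2 after FOXL2 siRNA. These are RSEM's allocations within a gene, and their error was not used here.

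**Figure D3:**
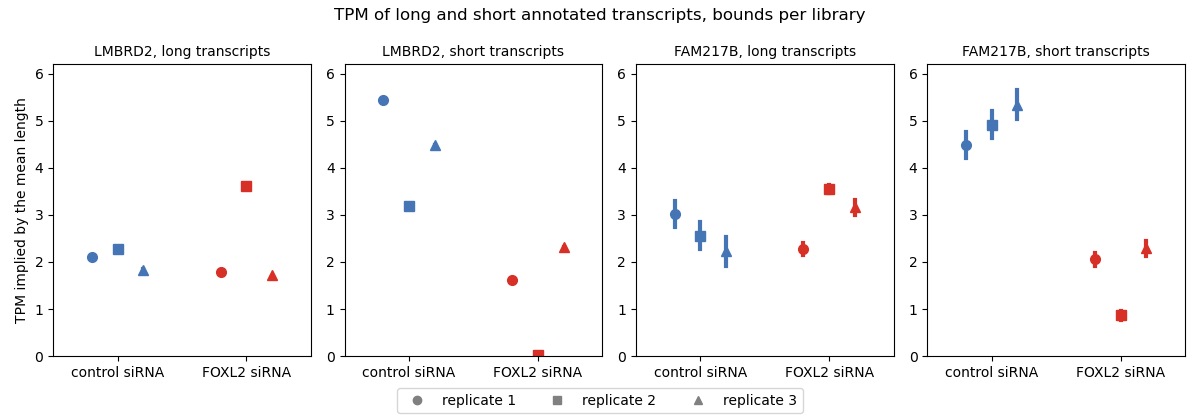
TPM of the long and the short annotated transcripts of LMBRD2 and FAM217B implied by the reported length and TPM, in each library (blue, control siRNA; red, FOXL2 siRNA; symbols, replicate). Vertical bars span the bounds and are shorter than the symbol for LMBRD2. The short transcripts are below every control in all 3 FOXL2 siRNA libraries, as the choice of genes fixes. The long transcripts of FAM217B intermix. For LMBRD2 the long transcript is below every control in FOXL2 siRNA replicates 1 and 3 and above every control in replicate 2.

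The genes shared few features outside the rule. Their numbers of listed transcripts were 24, 3, 4, 11 and 27 for BCLAF1, LMBRD2, FAM217B, TWF1 and LINC01358, against a median of 7 over the genes tested, so that both fewer and more than usual occurred. Their control TPM stood at percentiles 92.4, 37.5, 39.9, 92.0 and 44.2. The standard deviation of log2 length among controls was 0.0716, 0.292, 0.170, 0.00820 and 0.257 in the same order, against a median of 0.0452. The study asked whether genes that respond to FOXL2 depletion carry G-doublet-rich sequences. It compared them with published lists of genes whose transcripts stopped reverse transcription in vitro, which is a different measure from the motif search made here. A run of 8 GG doublets spaced by 1 to 4 bases, searched on the transcribed strand, was present in the longest annotated transcript of 2993 of 15530 tested genes (19.3%) and in none of the 5, over transcripts of unequal length. Expected counts were whole numbers, within 0.005, in all 6 libraries for LMBRD2 and FAM217B, in 5 for LINC01358 and in none for BCLAF1 and TWF1. BCLAF1 and TWF1 have pseudogene copies with which reads can be shared. The most abundant copies, BCLAF1P2 and TWF1P1, reached at most 71.8 and 125 counts. PPP1R3D overlaps FAM217B on the opposite strand, and whether counting used the strand is not given in the sources used here.

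No gene related to the 5 by function or position passed the test on counts. Of 79 tested genes in lists of partners, paralogs, regulators of transcript ends and neighbours within 50 kb, 0 were called by edgeR against 0.255% of all genes, 14 had an unadjusted p below 0.05, against 2114 of all 15663 genes, and the median log2 fold change was 0.01 (0.01 over all genes tested). DESeq2 and limma also called 0. Among the 5 partners and paralogs of BCLAF1 the median was -0.10. For the 7 genes of the LMBR1 family and beta-adrenergic signalling the median was 0.19. Of 22 tested genes for actin-binding proteins and their regulators, GMFB had the largest value at 0.56 ± 0.237 (SE, adjusted p = 0.354, edgeR). GMFB is a cofilin relative that acts on branched filaments. TWF2, the paralog of TWF1, had -0.06. SR proteins, which steer splice site choice, gave a median of -0.04 over 13 genes with SRSF8 at -0.27 (adjusted p = 0.385, edgeR), and a median log2 length ratio of 0.13. The 20 genes of the cleavage and polyadenylation machinery, which set where transcripts end, gave a median of 0.03. The largest value there was CSTF2, which binds downstream of the poly(A) signal, at -0.33 ± 0.0772 (SE, adjusted p = 0.127, edgeR). FAM217A, the paralog of FAM217B, had at most 2 counts and was not tested. Of 24 neighbours 10 were tested, among them SKP2, which starts 28 bp from LMBRD2 (0.07), and the largest value was that of LINC01135 (-0.44 ± 0.295 SE, adjusted p = 0.549, edgeR). Effective lengths did not overlap in 11 of the 79 genes, against 9.97% of all genes.

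The genes most like each of the 5 over the 6 libraries were ranked by the root mean square difference in log2 length and log2 CPM, each centred on its own mean. BCLAF1 was closest to HPRT1, a purine salvage enzyme, at 0.0419, and to CAPZA2, a subunit of the actin capping protein, at 0.0526. TWF1 was closest to TBL1XR1 (0.0671) and ANP32E (0.0745). The distances were larger for the less abundant genes, with LCORL (0.201) and REEP3 (0.216) nearest to LMBRD2, GSDMB (0.157) and SLC29A4 (0.162) to FAM217B, and the homeobox genes HOXA5 (0.160) and HOXC10 (0.161) to LINC01358. The nearest genes of the 4 coding genes had log2 length ratios of 0.20 to 0.62, and HOXA5 and HOXC10 had -0.43 and -0.61. The ranking used the lengths, so ratios of the same sign follow from it and are no further result. Lengths of the conditions overlapped in HPRT1, REEP3, TBL1XR1 and HOXC10, and CPM did not overlap in LCORL and SLC29A4. CAPZA2, GSDMB, ANP32E and HOXA5 had lengths that did not overlap and CPM that did. These are descriptions over 6 libraries, in which a difference in cell make-up and a difference in RNA per cell cannot be told apart.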

How the data were processed

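Gene expression was measured by stranded mRNA sequencing in 6 libraries. Per the labels and the methods of the study, the authors aligned reads with STAR 2.7.6a, checked them with Picard 2.8.1 and ran RSEM 1.3.1. The processing notes name the mouse build GRCm38, although the identifiers are human. The annotation release is not given in the sources used here, and GENCODE 29 was used for transcripts (95.0% of 34810 single-transcript genes had the same length). Each deposited table holds expected counts (not normalized), TPM and FPKM values scaled by the authors' run of RSEM, and a length and effective length per gene. The members and lists were chosen with earlier results of these data known.

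Expected counts were rounded to whole numbers, filtered with filterByExpr, normalized by TMM and compared with the quasi-likelihood test of edgeR 4.0.16 in R 4.3.3 (Benjamini-Hochberg adjustment, threshold 0.05). Library totals were 23843192 to 28791954. DESeq2 1.42.0, limma 3.58.1 on log2(TPM + 1), other filters, length offsets, a replicate block and leaving out single libraries were alternatives. The replicate numbers did not pair the libraries. FPKM served as an alternative to TPM. Conditions were said not to overlap when every value of one lay beyond every value of the other. Named were the 5 genes, FOXL2, the largest or called gene of each related list and the 2 nearest genes of each of the 5; the largest gene of some lists is not reported here. LMBR1L, SSH2, FIP1L1 and SRSF11 are named in the closing section as calls under an alternative, and TWF2, SKP2, PPP1R3D and the pseudogenes were named for their relation to the 5. The statistics were tested on simulated data.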

Additional observations from a re-analysis of the deposited data

How the results depend on the processing

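Apart from the length offsets, the alternatives for the count, length and TPM differences of the 5 genes moved them by less than the spread between replicates. Among them were 6 fits each that leave out a library. The offsets moved the LMBRD2 fold change from 0.08 to -0.80 in edgeR, against a spread of 0.379. This spread includes FOXL2 siRNA replicate 2, without which the log2 length ratio of TWF1 dropped from 0.41 to 0.12. FOXL2 stayed called in all 14 alternatives (log2 fold change -2.03 to -1.78 when single libraries were left out). The sign of the count difference changed for each of the 5 when single libraries were left out (-0.28 to 0.24 for LMBRD2, the widest range). Those of length and TPM cannot change in this way, since their groups do not overlap. The number of genes called by edgeR, 40, was far less stable. It was 350 with DESeq2 and 344 with DESeq2 and length offsets. Without a filter it was 70, with a minimum mean count of 50 it was 64, and limma on TPM gave 13. Leaving out a library gave 2 to 579 calls, with 105, 579 and 9 without FOXL2 siRNA replicates 1, 2 and 3, and 2, 3 and 2 without control siRNA replicates 1, 2 and 3. With the replicate block it was 11, but same-numbered libraries did not deviate together (correlations of -0.03, 0.05 and 0.05), so the numbers give no pairing. The block changed no other call. Of the 79 related genes none was called in the main test. DESeq2 with length offsets called 1, SRSF11 (log2 fold change -0.34 ± 0.0827 SE), and leaving out a library gave 0 to 3 calls, the 3 being LMBR1L (0.38), SSH2 (-0.54) and FIP1L1 (-0.32) without FOXL2 siRNA replicate 2. The cause was not tested. The count of genes whose lengths did not overlap while counts did, 1225, was 47 when a 1.5-fold length change was required. It was 1780 to 3796 when a library was left out, and fewer libraries separate more often when the conditions do not differ. The highest count was without control siRNA replicate 3, whose allowance for fragment length (169 nt) was the smallest of the controls. The cause was not tested. Few reads lie behind the short transcripts of LMBRD2 and FAM217B, and the error of RSEM's allocation was not used here.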
